A study of Mus musculus with 6 samples.

Results

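In the transcriptome assembled from E15.5 mouse ovaries, 281 of the 114412 listed transcripts carried the class code x, which the assembly software gives to a transcript lying on the opposite strand of a reference gene. All 281 were taken, with no filter on level. They formed 259 loci, of which 245 held 1 antisense transcript and 14 held more, and they were paired with 252 named sense genes. Ovaries were pooled from C57BL/6J embryos. Their mothers had received either panobinostat (PB), an inhibitor of histone deacetylases, at 5 mg/kg between E6.5 and E15.5, or vehicle alone (DMSO plus water). The methods give a dose every other day, whereas the annotation of the samples gives it per day. Each group held 3 pools, and neither group carried a genetic change. The number of ovaries per pool is given as 4, as 6 to 8, or as at least 8, depending on the source, so each value is an average over several embryos and all ovarian cell types.

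Antisense transcripts are made from the strand opposite to a gene. Some start near the promoter of the gene and read outwards across it, some lie inside the gene, and others run in from a neighbour and cross its far end. Well-studied examples such as Tsix, Airn and Kcnq1ot1 silence the genes that they overlap, while many others have no known role. In yeast, deacetylation of histones inside genes keeps hidden start sites silent, and antisense RNA accumulates where that process is lost. RNA-seq follows such RNA only when the library keeps the strand, as it did here. In a bulk pool, fewer cells that make an RNA and less of it per cell cannot be told apart.

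The total counts ranged from 97165644 to 125985399 per pool. The labelled tissue was checked with its markers. Foxl2, a regulator of pregranulosa cells, was at 135 to 166 CPM (counts scaled to the library size), the germ cell gene Dazl was at 191 to 304 CPM, and the Sertoli cell hormone Amh was at 0.645 to 1.20 CPM. PB 2 stood apart in several values below. Dazl was lowest in this pool (191 CPM), and so was Ddx4, another germ cell gene, at 77.7 CPM against 89.7 to 132 CPM in the other 5 pools. The pools of 1 group are not said to come from separate litters, so a p-value below measures the spread between these pools.

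The class code was first compared with the deposited exons. A total of 239 transcripts (85.1%) overlapped an exon of the paired gene on the opposite strand, over a median of 412 bases, and none shared an intron with it. The other 42 overlapped no exon of the gene that gives them their name, and 19 of these lay wholly within its limits. They are kept below as a group of their own. Among the 239, 116 covered the start of the sense gene, 92 lay inside it, 27 covered its end and 4 spanned it. Most of the 281 (193, 68.7%) had a single exon, 69 had 2 exons and 19 had 3 or more. Their median length was 1294 bases (range, 202 to 6428). In GENCODE vM21, a second annotation on the same genome build (mm10), 119 overlapped an annotated gene on their own strand. This gene was of the antisense type for 29, a promoter-shared long noncoding RNA for 11, an intergenic long noncoding RNA for 12 and a pseudogene for 43. The other 162 had none.

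The sequences at both ends of these transcripts, which the class code did not use, were read next. The first is the DNA that the largest group crosses. The 250 bases before the start of 3 sense genes are given 5′ to 3′ on the sense strand, from RefSeq (GRCm38.p6), with each CG pair in capitals. The first pair, 0610030E20Rik, and the second, Gm13710, are discussed below, and the antisense transcript of the third, Stub1, starts within this window.
0610030E20Rik, chr6:72347067-72347316, plus strand: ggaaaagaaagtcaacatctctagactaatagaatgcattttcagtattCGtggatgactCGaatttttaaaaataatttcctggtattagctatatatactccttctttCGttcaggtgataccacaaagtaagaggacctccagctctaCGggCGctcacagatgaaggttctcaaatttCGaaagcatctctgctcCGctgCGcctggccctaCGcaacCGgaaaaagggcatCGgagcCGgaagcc
Gm13710, chr2:84506874-84507123, minus strand: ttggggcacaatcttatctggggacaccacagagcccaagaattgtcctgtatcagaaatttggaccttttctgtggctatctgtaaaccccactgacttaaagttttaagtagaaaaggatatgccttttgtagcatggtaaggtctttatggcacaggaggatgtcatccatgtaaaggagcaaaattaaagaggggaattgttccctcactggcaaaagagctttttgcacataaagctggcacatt
Stub1, chr17:25832920-25833169, minus strand: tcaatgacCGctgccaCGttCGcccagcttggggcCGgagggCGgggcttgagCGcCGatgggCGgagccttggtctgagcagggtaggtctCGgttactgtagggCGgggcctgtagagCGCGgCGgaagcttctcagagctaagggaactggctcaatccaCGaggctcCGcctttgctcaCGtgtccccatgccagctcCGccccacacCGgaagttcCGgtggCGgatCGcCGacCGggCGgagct

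The 3 windows held 12, 0 and 24 CG pairs. Of the 116 transcripts that covered a sense start, 82 were matched to the promoter table, which gave 80 different windows of 300 bases (250 before the start and 50 after it). These windows held a median of 25 CG pairs (quartiles, 17 and 33), against 7 (quartiles, 3 and 20) in all 32817 windows of the table. The letters GGGCGG, read on both strands, were found in 66.2% of the windows of the pairs and in 35.6% of all windows. TATAAA was found in 6.25% and 13.6%, and CCAAT in 32.5% and 37.4%. GGGCGG itself holds a CG pair, so its share and the count of CG pairs are not separate measures. The table as a whole includes genes that are silent in the ovary, and the windows were not matched on expression. Within this group, the antisense RNA began a median of 777 bases after the assembled sense start (quartiles, 453 and 1162), and 76 of the 116 began within 1000 bases of it. Measured from the RefSeq start of the 82 matched pairs instead, 69 antisense RNAs began at or after it and 13, that of Stub1 included, began before it.

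The far end was read in the same way. Cleavage of most mRNAs follows the signal AATAAA, or its variant ATTAAA, by a short distance. The last 50 bases could be read only where a GENCODE exon of either strand covered them, so the readable ends are not a random part of the members. This was so for 106 of the 281. Of these, 20 (18.9%) held either string, against 4 (3.77%) on the opposite strand of the same windows. Among transcripts that match the reference, 19345 of 33353 readable ends (58.0%) held it, with 10.6% on the opposite strand. The ends of 4 antisense transcripts are shown with the signal in capitals, as 30 bases of GRCm38 on the antisense strand.
Antisense to 0610030E20Rik, chr6:72347029-72347058, minus strand: tagtatAATAAActtcactatgagatcata
Antisense to Cacnb4, chr2:52434854-52434883, plus strand: ctgctgtctgacctAATAAAgcattttgat
Antisense to Spopl, chr2:23509842-23509871, plus strand: gatgtattttatgcatgtcAATAAAggaaa
Antisense to Ddx19a, chr8:110975356-110975385, plus strand: tctgaagAATAAAgacataaccaaggcatt

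These 4 were chosen after their values were seen, from the 20 ends that held the signal. Most readable ends held neither string. The Cacnb4 partner, 3 exons long and listed in GENCODE as A430018G15Rik, had a level of 2.92 CPM per kilobase of transcript, against 0.288 CPM per kilobase for Cacnb4 itself, a subunit of calcium channels. The Ddx19a partner was at 2.52 CPM per kilobase and Ddx19a, an RNA helicase, at 29.3 CPM per kilobase.

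Levels per length are used wherever an antisense locus is compared with its gene. In the 231 pairs whose sense gene had a mean of at least 10 counts, the antisense level was a median of 8.39% of the sense level (quartiles, 2.94% and 31.4%). It was under 10% in 124 pairs and under 1% in 26, and it was above the sense level in 39. The kind of overlap went with this ratio. The median was 10.2% in the 107 pairs where the antisense RNA covered the sense start and 3.07% in the 87 pairs where it lay inside the gene. It was 92.6% in the 15 pairs that met at the sense end and 384% in the 19 without exon overlap. Across the 231 pairs, Spearman's rho between both levels was -0.34. This is a description over pairs of the same 6 libraries. Most antisense loci lay in a narrow band around 1 to 2 CPM per kilobase, whatever the level of their gene.

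**Figure D1:**
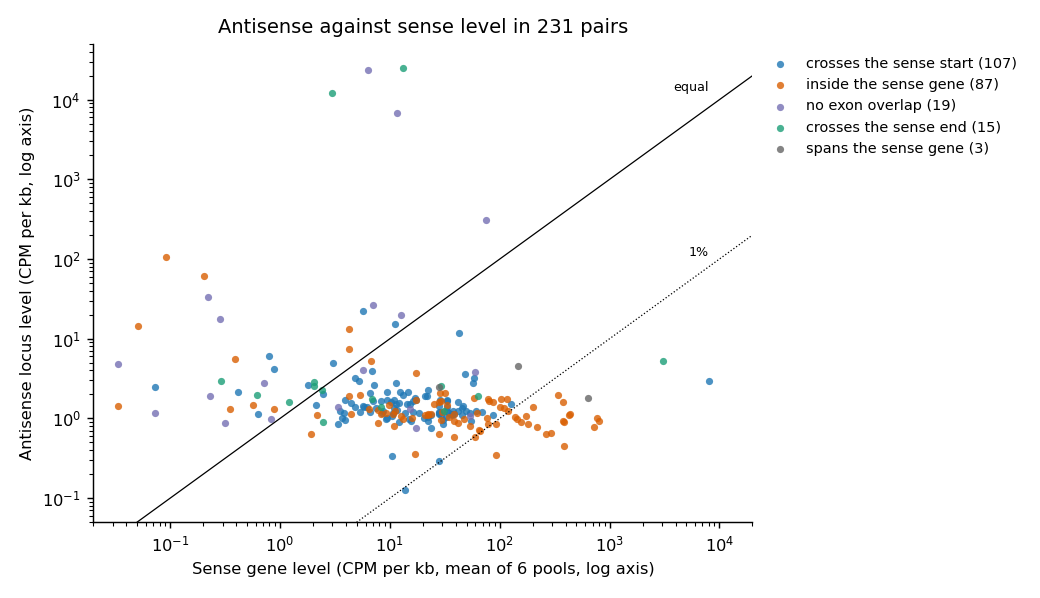
Each point is 1 of 231 antisense loci, with the level of its sense gene on the x axis and its own level on the y axis (CPM per kilobase, mean of 6 pools, both axes log). Colours give the kind of overlap, the solid line marks equal levels and the dotted line marks 1% of the sense level. Most points form a band, and 4 loci lie above 1000 CPM per kilobase.

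A few loci carried nearly all antisense counts. The share of all counts on antisense transcripts was 5.56%, 7.29% and 6.16% in the control pools. It was 4.58%, 3.01% and 5.35% in PB 1, 2 and 3. The groups did not overlap, and the means were 6.34% ± 0.880 in control and 4.31% ± 1.19 in PB (SD, n = 3). Without the 4 most abundant loci, a choice made after seeing the data, the other 255 loci held 0.109%, 0.112% and 0.112% of the control counts. Their PB values were 0.112%, 0.127% and 0.110%. These ranges overlapped, and the means were 0.111% ± 0.00179 and 0.116% ± 0.00920 (SD, n = 3). Since the 4 loci held nearly all antisense counts, a gap of this size between the groups could lie only in them.

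The locus paired with LOC101056014 (chr17:39842997-39848831, plus strand) held most of it. GENCODE lists Gm26917 and Gm42418 on its strand and a ribosomal RNA gene, CT010467.1, on the other, so reads from ribosomal RNA copies elsewhere cannot be told apart from its own. Its counts were 2928342, 5360834 and 3292504 in control and 2454445, 68950 and 3642821 in PB. PB 2 was thus far below every other pool. The log2 fold change (FC) of PB against control was -0.96 (SE, 1.06), and it was -0.40 without PB 2. Its 4 assembled transcripts divided these counts very unevenly: MSTRG.7969.4 had 0, 3337448 and 2863353 counts in control and 1801422, 0 and 0 in PB. Values of single transcripts at this locus are uncertain for that reason.

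The other 3 loci were closer among pools. MSTRG.7241.1 is a single exon of 580 bases at chr16:57391108-57391687 on the minus strand. It is named after Filip1l, but it overlapped no exon of that gene. It was at 14665, 16762 and 14319 CPM in control and at 10791, 15662 and 11939 CPM in PB. The groups overlapped. A second member, MSTRG.7242.1, was assembled on the opposite strand of the same bases and named after Cmss1. Its counts were 0.0527% to 0.106% of those of MSTRG.7241.1 in the 6 pools, which is the share of counts seen on the strand opposite to the most abundant of these RNAs. MSTRG.6884.1 crosses the end of Zc3h7a, a zinc-finger gene, and overlaps Gm23935 of GENCODE. It was at 11839.7, 13164 and 11668 CPM in control and at 8717, 11576 and 9519 CPM in PB. All PB pools were below all control pools by a small margin (log2 FC, -0.30, SE 0.11, unadjusted p = 0.0369, FDR 0.89, edgeR quasi-likelihood test on locus sums). The Arhgap21 locus, at 1137 to 1679 CPM, had 2-exon transcripts of about 200 bases that overlapped no Arhgap21 exon. The Dis3l2 locus, which overlaps the pseudogene Gm6136, was at 85.5 to 111 CPM. Reads of pseudogenes and repeats can come from other copies, so these levels are uncertain as well.

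**Figure D2:**
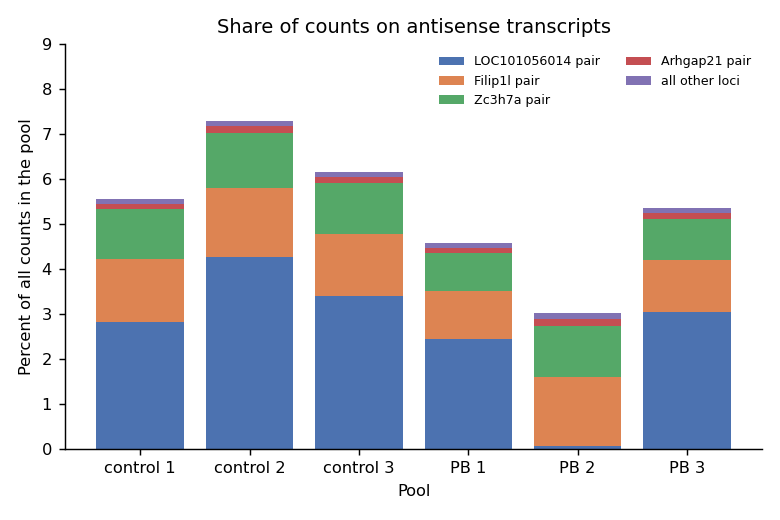
Bars give the percent of all counts of each pool that fell on antisense transcripts, divided among the 4 most abundant loci and the other 255. The LOC101056014 pair is nearly absent from PB 2 (0.0659%), and the other 255 loci form a thin band of 0.109% to 0.127%.

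To ask whether PB exposure changed antisense transcripts, counts were compared between the groups across all transcripts. Of the 281, 267 had enough counts to be tested, and none was called by edgeR, where a call needed both an FDR up to 0.05 and a 2-fold change or more. In the whole table, 17 of 51227 transcripts (0.0332%) were called. The common coefficient of variation between pools was 98.4% in this table. In counts simulated from it, the test found 0% of 4-fold changes and 34% of 64-fold changes. These changes were placed on transcripts drawn from the whole table, whose median SD within a group was 0.57, against 0.23 for the antisense ones. The share that would be found among antisense transcripts was not measured, so the absence of calls is not read as absence of change in single transcripts. At an unadjusted p under 0.05 there was 1 antisense transcript, MSTRG.9694.2 at Arhgap21, against 3.56% of all transcripts. This transcript was lower in PB, but the reads of its locus are divided among several transcripts. The locus as a whole held a mean of 0.135% of counts in control and 0.133% in PB. DESeq2 called none as well. It gave an FDR of at most 0.05 to 1 transcript, at Mrps28, but under a 2-fold change, and 7 were found at an unadjusted p under 0.05, a threshold passed by 7.17% of all transcripts with DESeq2. With DESeq2 1.85% of all transcripts were called. The median log2 FC of the 267 was 0.02 (quartiles, -0.16 and 0.16), with 141 above 0 and 126 below, and it was 0.01 for all transcripts. Only 10 (3.75%) reached a 2-fold change in either direction, against 20.1% of all transcripts tested. The median SD of log2 CPM within a group was 0.23 for the antisense transcripts, 0.18 for the intergenic ones, 0.16 for those in introns and 0.59 for the reference-matching ones.

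The antisense transcripts of each locus were then summed and tested in one table with the sums of all genes. The common coefficient of variation between pools was 21.0% in this table. In counts simulated from it, 83.5% of 4-fold changes were found, with 13 false calls, but these too were placed on features drawn from the whole table. Of the 259 loci, 255 were tested and none was called, against 3 of 19664 features (0.0153%). An unadjusted p under 0.05 was found with edgeR at 8 loci (3.14% of those tested, against 4.44% of all features). Without PB 2 it was found at 27 loci (10.5%), against 12.3% of all features. Without PB 3 it was found at 5 loci (1.94%, against 2.77% of all features), and without control 3 at 5 (1.95%, against 3.69%). With all pools it was found with DESeq2 at 14 of 259 loci, a larger share than the 3.67% of all features. DESeq2 called none of the loci either, against 0.0418% of all features. The smallest FDR of a locus was 0.89 with edgeR and 0.479 with DESeq2. The median log2 FC was 0.01 (quartiles, -0.14 and 0.15), and the median of its SE was 0.20, against 0.12 for all features. The lowest log2 FC was -1.25 and the highest was 1.40. Pools of the groups did not overlap at 17 loci (6.67%), 7 higher and 10 lower in PB, against 10.7% of all features (5.05% higher and 5.63% lower).

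The 5 loci with the smallest p among those higher in PB are given as CPM in control 1, 2 and 3 and then PB 1, 2 and 3. The RNA across the start of Mrps28, a gene of the mitochondrial ribosome, was at 3.77, 4.01 and 4.29 and then 5.08, 5.42 and 5.50 CPM. Every PB pool was above every control pool, and the log2 FC was 0.41 (SE, 0.10, unadjusted p = 0.0060, FDR 0.89, edgeR). With DESeq2 the FDR was 0.0246 for its single transcript in the table of transcripts and 0.479 in the table of sums. Mrps28 itself was at 15.6 to 17.6 CPM with overlapping groups. The ratio of antisense to sense counts was higher in PB by 0.47 on the log2 scale. Its exact two-sided permutation p was 0.10, the smallest that 3 against 3 pools allow. This locus was named for its small p on the same counts. Of the 228 pairs with both strands tested, 13 (5.70%) reached 0.10. At Cyb5r3, a reductase of cytochrome b5, the antisense RNA (Gm49463 of GENCODE) was at 8.01, 8.45 and 8.09 and then 9.63, 8.87 and 11.3 CPM. The groups did not overlap (log2 FC, 0.28, SE 0.11), but the ratio to Cyb5r3 did not separate them (exact permutation p = 1.00). At Btbd9 the antisense RNA was at 12.9, 13.8 and 13.6 and then 14.99, 14.1 and 16.7 CPM, again without overlap, and the log2 FC was 0.19 (SE, 0.08).

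The other 2 loci of this kind were placed on the sex chromosomes. At LOC108168474 on the X chromosome the antisense RNA, 5325 bases in 1 exon, was at 11.5, 13.7 and 11.3 and then 13.6, 14.2 and 17.9 CPM. PB 1 lay just below control 2, so the groups overlapped. Its sense partner had only 3 to 11 counts per pool. The RNA named after G530011O06Rik had 8 exons at the end of the Y chromosome (chrY:90753056-90764965), where GENCODE lists Mid1-ps1. It was at 1.71, 2.93 and 5.51 and then 7.69, 6.62 and 5.09 CPM. The control pools were widely spread and PB 3 lay below control 3. Mid1-ps1 is a pseudogene of Mid1, and reads shared with Mid1 leave these counts uncertain. The pools are ovaries, so reads placed here are not read as expression from a Y chromosome.

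The 5 loci with the smallest p among those lower in PB followed. The antisense RNA inside Lars2, the mitochondrial leucyl-tRNA synthetase, was at 1.01, 1.21 and 1.13 and then 0.847, 0.753 and 0.559 CPM, without overlap (log2 FC, -0.63, SE 0.22, unadjusted p = 0.0263, FDR 0.89, edgeR). Lars2 sense counts were 757191 in control 1 and 3194 to 10411 in the other pools, so no ratio is read for this pair. The antisense RNA inside Kcnh6, a potassium channel gene, was at 36.2, 47.0 and 35.6 and then 31.0, 33.7 and 27.5 CPM (log2 FC, -0.37, SE 0.13). Kcnh6 itself was far lower, at 1.48 to 2.62 CPM. Per length, this antisense RNA was at 5.57 CPM per kilobase and the gene at 0.390 CPM per kilobase.

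The antisense RNA that crosses the promoter of 0610030E20Rik, printed above with its AATAAA end, was at 2.82, 2.99 and 2.97 and then 2.33, 2.48 and 1.93 CPM. Every PB pool was lower (log2 FC, -0.38, SE 0.14), and the sense gene stayed at 22.3 to 25.9 CPM with overlapping groups. The ratio was lower in PB by a log2 difference of -0.44 (exact permutation p = 0.10, the smallest possible, reached by 5.70% of pairs). At Gm13710, whose window holds no CG pair, the antisense RNA was at 8.13, 6.99 and 7.49 and then 6.84, 3.54 and 4.70 CPM, without overlap (log2 FC, -0.58, SE 0.23), and the sense transcript had at most 11 counts in a pool. The fifth locus was Zc3h7a, described above.

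**Figure D3:**
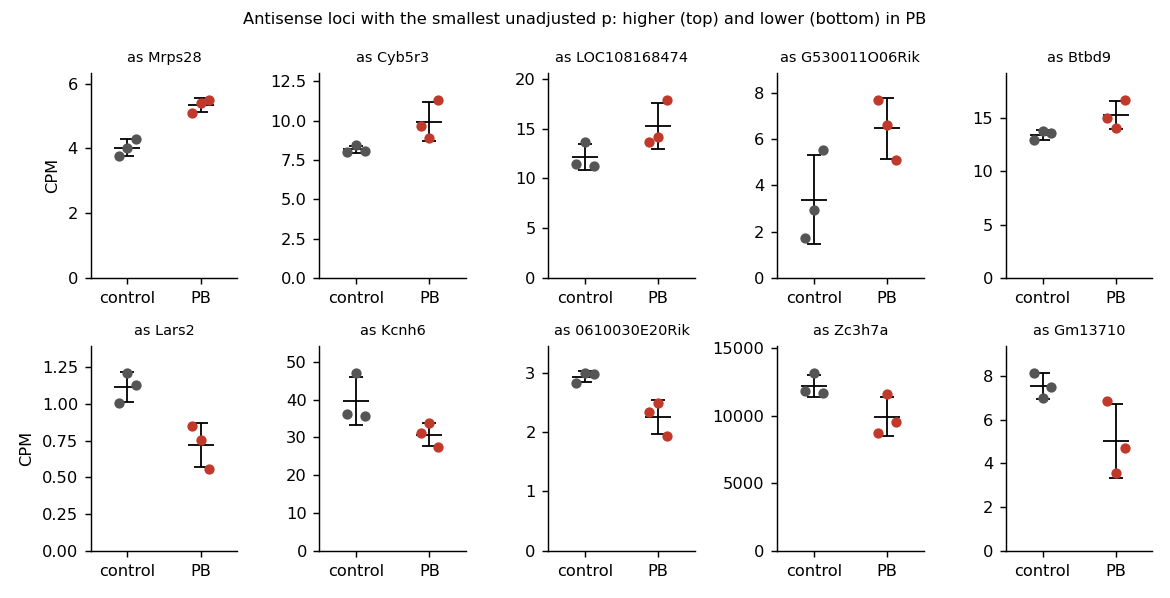
Points are the CPM of each pool at the 10 antisense loci with the smallest unadjusted p, 5 higher (top) and 5 lower (bottom) in PB, with the mean and SD of 3 pools. Gene names are those of the sense partner. Mrps28 and 0610030E20Rik show separate groups, while the control and PB points interleave at LOC108168474 and G530011O06Rik.

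The overlapped sense genes were read from the same table. Of the 252 genes, 226 were tested and none was called, 11 had an unadjusted p under 0.05 (4.87%, against 4.44% of all features), and the median log2 FC was 0.00. Without PB 2, 34 sense genes (14.9%) had an unadjusted p under 0.05, against 12.3% of all features, and none was called. In 228 pairs both strands were tested. The changes had the same sign in 124 pairs and opposite signs in 104, with Pearson's r of 0.14 and Spearman's rho of 0.15 across pairs. These points share their libraries and scaling, and the values are descriptive. The log2 ratio of antisense to sense differed between the groups by a median of -0.02 (quartiles, -0.18 and 0.14).

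**Figure D4:**
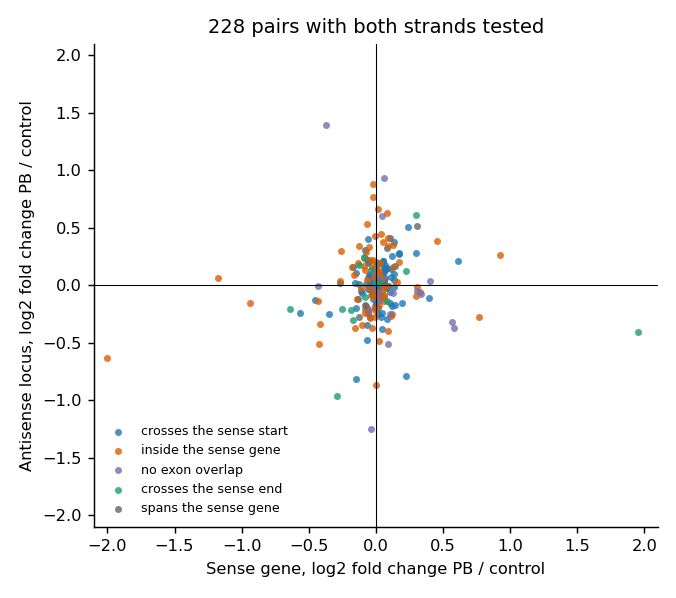
Each point is 1 of 228 pairs, with the log2 fold change of PB against control of the sense gene on the x axis and of the antisense locus on the y axis. Values beyond 2 are drawn at the edge, which moves Lars2 (sense, -5.53). The points gather around 0 on both axes, with the wider spread along the antisense axis.

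The kinds of overlap were also read for how their antisense RNAs varied among pools, as a description with no test between kinds. Each locus was compared with its own mean in the other 5 pools. The 86 tested loci inside a gene were higher in PB 2 by a median of 0.32 on the log2 scale and lower in PB 1 by a median of -0.18, and PB 2 was their highest pool in 40 cases (46.5%). Their sense genes differed by 0.02 in PB 2 and by 0.00 in PB 1. Over all 19664 features, PB 2 was the highest pool for 19.6%, with a median of 0.01. The 109 loci that crossed a sense start were at 0.07 in PB 2, their highest pool in 32 cases (29.4%). The 33 loci without exon overlap were at 0.16 in PB 2, highest in 12 cases (36.4%), and the 23 that met at the sense end were at 0.09, highest in 9 (39.1%). Over all 255 tested loci PB 2 was the highest pool for 36.9%. Inside genes, the 69 loci with no GENCODE gene on their strand were at 0.42 in PB 2, and it was their highest pool in 38 cases. The 17 that match a GENCODE gene were at 0.16, with PB 2 highest in 2. The median SD of log2 CPM within a group was 0.40 for the transcripts inside genes and 0.17 for those across a sense start. The former also had fewer counts, with a median level of 0.618 CPM against 3.07 CPM. PB 2 was also the pool with the lowest count at the ribosomal locus and the lowest level of Dazl. The part of level, RNA quality or cell makeup in this pattern was not tested. The mitochondrial genome held 2 antisense loci, neither of them inside a gene, and both overlapped a mitochondrial tRNA gene of GENCODE on their own strand. The one opposite ND2 was at 8.27, 5.74 and 8.64 and then 8.34, 15.2 and 8.73 CPM, and the one opposite COX1 was at 7.32, 5.46 and 6.92 and then 6.29, 16.1 and 7.71 CPM. In both, PB 2 was the highest pool. Per length they stood at 0.289% and 0.170% of their genes. The part of sense reads assigned to the wrong strand in these counts was not tested.

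**Figure D5:**
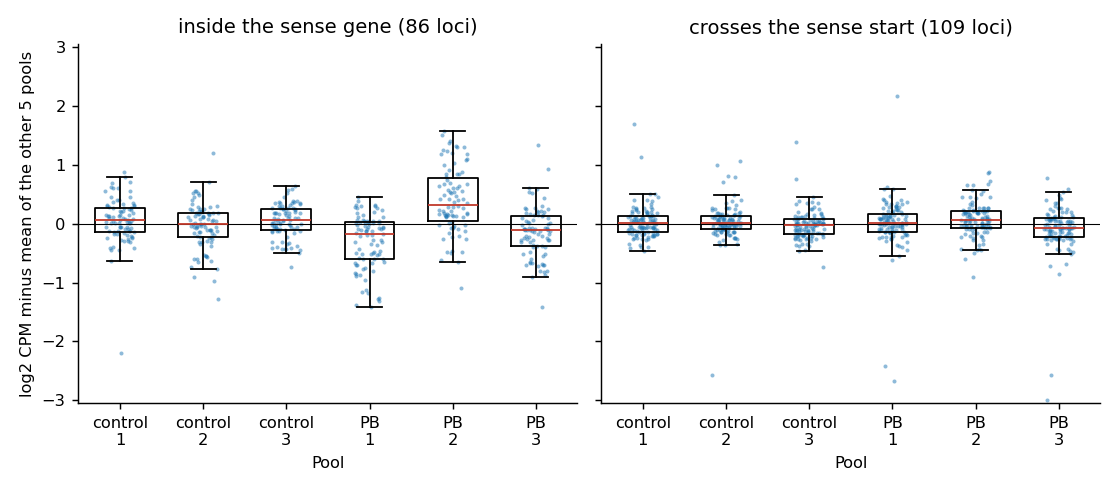
Each point is an antisense locus, and the y axis gives its log2 CPM in a pool minus its mean in the other 5 pools, for 86 loci inside a gene (left) and 109 across a sense start (right). Boxes give quartiles, red lines medians, whiskers reach up to 1.5 times the box height, and points beyond 3 are drawn at the edge. Loci inside genes sit high in PB 2 (median, 0.32) and low in PB 1 (median, -0.18).

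Lists of genes known in this tissue were searched for antisense partners. Of all 19409 genes tested, 226 (1.16%) had a member, so the lack of one in a short list says little. None of the 38 genes of germ cells and meiosis, the 12 of testis determination, the 18 deacetylase and sirtuin genes, and the 40 genes of histone methylation and acetylation enzymes had an antisense member. No member was found either for the 6 Leydig cell genes, the 5 of the mesonephros, the 7 of red blood cells, the 5 of endothelium, the 5 of macrophages and the 36 genes with a textbook antisense partner. RNAs such as Tsix are themselves reference transcripts and receive another code. Of the 24 genes of pregranulosa cells and ovary determination, Foxo3 had one. Foxo3 restrains the activation of primordial follicles. Its antisense RNA, 261 bases inside the gene, was at 0.407, 0.540 and 0.404 and then 0.272, 0.489 and 0.508 CPM, and the groups overlapped. Foxo3 was at 187 to 219 CPM.

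The imprinted list, the longest, held the other members found. Igf2, Peg3, Peg10, Rtl1, Plagl1 and Grb10, 6 of its 56 genes, had an antisense member. These were 6 of the 51 imprinted genes tested (11.8%), beside 226 of all 19409 genes tested (1.16%), a description with no test. Of the antisense loci, 5 were tested with none called. Of the 6, 5 were short single exons inside the gene. The sixth, at Rtl1, a gene derived from a retrotransposon, had 2 exons on the plus strand (chr12:109595394-109603829). Rtl1 is known to face an antisense RNA that carries several microRNAs. The assembled transcript starts 6 bases after the hairpin of microRNA 136, on the same strand. The mature sequences are from RefSeq (GRCm38.p6), with the seed, bases 2 to 8, in capitals.
mmu-miR-136-5p, chr12:109595331-109595352, plus strand: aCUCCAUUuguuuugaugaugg
mmu-miR-136-3p, chr12:109595366-109595387, plus strand: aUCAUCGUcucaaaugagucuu

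The Rtl1 antisense RNA was at 7.45, 9.50 and 8.31 and then 7.81, 16.2 and 12.03 CPM. PB 1 lay among the control pools and PB 2 was highest (log2 FC, 0.51, SE 0.26, unadjusted p = 0.0885, FDR 0.89, edgeR). Rtl1 itself was at 1.35, 2.38 and 2.39 and then 1.24, 4.06 and 1.91 CPM, also highest in PB 2. Per length the antisense RNA was at 2.17 CPM per kilobase, against 0.416 CPM per kilobase for Rtl1.

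The other imprinted genes stood far above their antisense RNA. Whether sense reads assigned to the wrong strand add to these antisense counts was not tested. At Igf2, a fetal growth factor, the antisense RNA was at 0.794, 1.14 and 1.23 and then 0.444, 2.73 and 0.869 CPM, or 0.109% of Igf2 per length. The Peg3 partner ranged from 0.343 to 0.958 CPM, that of Plagl1, a transcription factor gene, from 0.797 to 1.93 CPM, and that of Grb10, an adaptor that restrains growth, from 0.120 to 0.694 CPM. The Peg10 partner had 2 to 8 counts in 5 pools and 32 in PB 2, and it was not tested. PB 2 held the highest value at all 6 antisense loci, and the sense genes were highest in PB 2 at all 6 too. Grb10 was at 235, 227 and 246 CPM in control and at 224, 596 and 523 CPM in PB. Its log2 FC was 0.93 (SE, 0.33, FDR 0.89, edgeR), and without PB 1 it was 1.25 with an FDR of 0.0296, the only sense gene called in that fit. PB 1 was the PB pool near the control level, so leaving it out raises this value. The share of all features called in that fit is not given, so this call cannot be set against it and is not read as a change. The ratio of antisense to sense did not separate the groups at any of the 6 (exact permutation p from 0.30 to 0.90).

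The 5 pairs with the highest ratio of counts were those of LOC101056014, Filip1l, Zc3h7a, C330021F23Rik and Sec14l5. The C330021F23Rik partner is a copy of a ribosomal protein gene (Rps23-ps2 of GENCODE) at 29.4 to 34.7 CPM, and reads of its parent gene may be counted there. The Sec14l5 partner spans chr16:5174349-5228272 on the minus strand in 2 exons. It was at 25.7, 22.8 and 25.2 and then 25.8, 23.5 and 24.3 CPM, one of the steadiest members, with a log2 FC of -0.0039 (SE, 0.07). Its intron holds the hairpin of microRNA 6364. Sec14l5 was at 0.155 to 0.244 CPM. At 9 loci, among them those opposite Mir142b and Mir8099-2, the sense gene had no count in any pool. At these depths a count of 0 allows up to 3 counts, or 0.0257 to 0.0319 CPM, and such intervals cover counting error only.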

How the data were processed

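Strand-specific libraries of polyA RNA from 3 control and 3 PB pools were sequenced as paired reads of 100 bases. The authors aligned them to mm10 with HISAT2 2.1.0, assembled and merged transcripts on RefSeq with StringTie 1.3.5, and deposited a matrix of raw counts per transcript that prepDE derives from coverage. The deposited table of the authors' DESeq2 1.30.0 comparison gave the class codes. Its fold changes, p-values and 6 columns of normalized signal were not used. Counts depend on how reads are divided among isoforms, so transcripts were also summed per antisense locus and per sense gene (all transcripts with the name except class x). The 1493 transcripts without a gene name, 3.05% to 4.49% of counts, were left out of these sums. Members and gene lists were chosen with earlier results of these data known.

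Counts were tested with edgeR 4.0.16 (R 4.3.3, limma 3.58.1), with TMM scaling, filterByExpr (minimum count 10, minimum total 15) and the quasi-likelihood F-test with Benjamini-Hochberg adjustment (FDR). DESeq2 1.42.0 was the alternative. The scripts were tested on simulated data. CPM used TMM-scaled libraries, and levels per kilobase used assembled exon lengths. Ratios took a pseudocount of 0.5 on both strands and an exact two-sided permutation test. Named were the 10 most abundant transcripts, the 5 with the smallest p in each direction among transcripts and among loci, the 5 highest ratios, and members paired with a listed gene. Of 280644 reference introns, 79.8% were found in GENCODE vM21. Same-numbered pools did not deviate together in every pair, so pairs were not used as a block. Depth is given with the report.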

Additional observations from a re-analysis of the deposited data

How the results depend on the processing

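No antisense transcript and no antisense locus was called with another scaling, without a filter, with a stricter one, with the Wald test of DESeq2, an FDR of at most 0.1 or 5 pools (0 to 0 calls for both), and no transcript was called among those with several exons alone. For transcripts this says little, since the test found few of the changes simulated across that whole table. Without single pools, the sense genes had 0 to 1 calls, with Grb10 called without PB 1, its lowest PB pool. The share of all features called in that fit is not given, so the Grb10 call is not read as a change. The difference in antisense share (PB minus control) ranged from -2.54 to -1.37 percentage points without single pools. It was -1.83 without the most abundant transcript and 0.00556 without the 4 most abundant loci, a setting added after the data were seen. Without PB 2, the counts at an unadjusted p under 0.05 moved from 8 to 27 loci and from 11 to 34 sense genes, while the share of all features moved from 4.44% to 12.3%. Without PB 3 they were 5 loci (1.94%) and 6 sense genes (2.62%), against 2.77% of all features. Without control 3 they were 5 (1.95%) and 8 (3.49%), against 3.69% of all features.

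Signs turned for log2 fold changes that were never called, and the cause was not tested. Without single pools, the ranges were -1.40 to 1.02 for MSTRG.7969.1, -3.55 to 9.44 for MSTRG.7969.2, -22.34 to 0.53 for MSTRG.7969.3, -0.15 to 0.10 for MSTRG.9694.1 and -0.13 to 1.58 for MSTRG.9694.3. The locus ranges were -0.44 to 0.18 for Plagl1, -0.24 to 0.14 for Foxo3, -0.51 to 0.33 for Peg3, -0.68 to 0.76 for Igf2, -0.60 to 0.96 for Grb10 and -0.058 to 0.029 for Sec14l5.

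With the replicate number as a block, 0 transcripts, 0 loci and 0 sense genes were called. The block turned MSTRG.7969.1 to -0.43, MSTRG.7969.2 to 8.06, MSTRG.9694.1 to 0.0063, the Peg3 locus to -0.058 and the Igf2 locus to -0.0034. Deviations of same-numbered pools correlated at 0.10, 0.17 and -0.01 in the table of sums, so the numbers were not taken to pair the pools. Of 42 ratio values under a pseudocount of 5 or reference-matching sense transcripts alone, 40 moved by less than the SD between pools. The median SE of a locus, 0.20 on the log2 scale, limits what change could be called.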
